A study of Mus musculus with 4 samples.

Results

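T cell receptor variable genes were read in RNA from sorted CD45+ cells of the mouse dura mater, by name: every gene of the table whose symbol marks it as an alpha, beta, gamma or delta variable gene (Trav, Trbv, Trgv or Trdv) and that had at least 10 reads summed over the 4 libraries. Of 55401 genes in the table, 178 matched by name and 99 reached the minimum: 69 of 130 alpha, 20 of 35 beta, 6 of 7 gamma and 4 of 6 delta genes. The rule used no difference between groups. Trav13d-1 and Trgv3, each with 10 reads, and Trav13d-4 with 11 lay just inside the minimum, and Trav10d with 9.57, Trav8-1 with 9.29 and Trav4n-4 with 8.79 lay just outside it. Of the 99 genes, 98 are annotated as functional variable genes and 1, Trbv24, as a pseudogene.

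The mice were male C57BL/6J animals of WT genotype, injected at 4 wk of age with 2 µl of an AAV9 vector into the cisterna magna, the cerebrospinal fluid space below the cerebellum. AAV-mVEGF-C encodes full-length mouse VEGF-C, the main growth factor of lymphatic vessels. AAV-CTRL encodes a soluble piece of mouse VEGFR3 that cannot bind VEGF-C, so both groups received a vector and a secreted protein. Each library pooled the cells of 10 to 12 mice and each group had 2 libraries, so a test over the libraries measures the spread between pools and no mouse was read on its own. Pairs of values for a group are given in the order of the replicate numbers, and runs of 4 values in the order AAV-CTRL 1, AAV-CTRL 2, AAV-mVEGF-C 1, AAV-mVEGF-C 2.

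A T cell receptor is a pair of chains, alpha with beta or gamma with delta. Each chain is made from 1 variable gene that is joined, in the DNA of the developing T cell, to a joining segment and then spliced to a constant gene. Reads of a variable gene can thus reflect the segments that the T cells of a sample had chosen. Whether the reads here came from joined chains was not tested. Most T cells of blood and lymph nodes carry alpha and beta chains drawn from many variable genes. Many gamma delta T cells settle in barrier tissues during development, and those of the meninges, the dermis and the uterus are known for a nearly fixed receptor of Trgv6 with Trdv4 and for making interleukin 17.

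The 2 variable genes with the most reads were Trdv4 and Trgv6, the pair that forms that receptor, and the ends of their coding sequences are shown to let the germline segments be told apart. The 87 bases run from 75 bases before to 9 bases after the conserved cysteine codon, in capitals, where the joined part of the chain begins. They were read from the GENCODE M21 transcripts, on GRCm38 (mm10), plus strand, at chr14:54075426-54075512 for Trdv4, chr13:19190839-19190925 for Trgv6 and chr13:19185415-19185501 for Trgv4, another gamma gene of interleukin 17-producing cells.
Trdv4: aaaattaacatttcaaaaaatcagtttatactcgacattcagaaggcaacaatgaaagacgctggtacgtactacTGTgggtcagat
Trgv6: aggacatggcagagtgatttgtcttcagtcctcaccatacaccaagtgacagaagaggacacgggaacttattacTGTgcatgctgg
Trgv4: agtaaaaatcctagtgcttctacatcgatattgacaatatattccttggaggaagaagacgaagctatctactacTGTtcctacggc

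Alpha variable genes lie in a stretch of chromosome 14 that was copied in this strain, and many exist as near-identical copies marked d or n in the symbol. The same 87 bases of Trav7d-6 (chr14:53020904-53020990) and Trav7n-6 (chr14:53325121-53325207) did not differ at any base, and Trav7-6 (chr14:53717204-53717290) differed from them at 3 bases, in capitals. They are shown because reads from such copies cannot be assigned to 1 gene.
Trav7d-6 and Trav7n-6: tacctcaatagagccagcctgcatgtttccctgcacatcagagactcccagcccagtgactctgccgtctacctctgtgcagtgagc
Trav7-6: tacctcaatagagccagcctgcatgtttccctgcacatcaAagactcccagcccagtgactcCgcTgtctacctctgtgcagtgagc

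Trav11 (chr14:53519772-53519858), the alpha gene of invariant natural killer T cells, and its copy Trav11d (chr14:52824826-52824912) were also identical over these bases, shown once for both with the cysteine codon in capitals.
Trav11 and Trav11d: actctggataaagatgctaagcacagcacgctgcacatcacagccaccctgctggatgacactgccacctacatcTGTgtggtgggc

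The beta genes, by contrast, shared no stretch of 100 bases with each other. Over the same 87 bases, Trbv13-1 (chr6:41116378-41116464) differed from Trbv13-3 (chr6:41130495-41130581) at 19 bases and Trbv13-2 (chr6:41121742-41121828) at 10, in capitals, so the counts of this family can be read gene by gene.
Trbv13-3: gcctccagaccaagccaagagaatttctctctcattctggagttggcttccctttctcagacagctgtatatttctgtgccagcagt
Trbv13-2: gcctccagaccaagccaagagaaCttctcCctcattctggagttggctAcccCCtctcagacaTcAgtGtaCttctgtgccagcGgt
Trbv13-1: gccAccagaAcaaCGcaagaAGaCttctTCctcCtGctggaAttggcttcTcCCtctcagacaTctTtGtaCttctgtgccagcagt

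The libraries held 46409700 (AAV-CTRL 1), 33336071 (AAV-CTRL 2), 38052048 (AAV-mVEGF-C 1) and 32520709 (AAV-mVEGF-C 2) reads assigned to genes. AAV-CTRL 1 stood apart: it had the most reads and the fewest genes above 0, 20993, with 29230 to 37535 in the others. Of the 10382 genes of the table with 10 to 100 reads in all, 61% were at 0 in AAV-CTRL 1, and 7.77%, 1.98% and 17% in the others, in order. The 84 variable genes in that range were at 0 in 54.8%, 16.7%, 3.57% and 11.9% of cases. The many variable genes missing from AAV-CTRL 1 accompany a lack of low genes across that whole library, and results that rest most on it are also given without it. Levels are given as CPM, reads per 1000000 reads assigned to genes in the library. The defining markers of T cells were present in all 4 libraries: Cd3e, a signalling part of the receptor complex, was at 60.1 and 47.3 CPM in the control pools and at 65.4 and 60.6 CPM in the AAV-mVEGF-C pools.

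Together the 99 genes took 51.2 and 41.9 CPM in the control pools, and 65.7 and 51.4 CPM in the AAV-mVEGF-C pools. The AAV-mVEGF-C libraries were both above both AAV-CTRL libraries, with AAV-CTRL 1 and AAV-mVEGF-C 2 almost level. With TMM library sizes the groups overlapped (exact permutation p = 0.667). The means were 46.6 ± 6.57 CPM (SD, n = 2) and 58.6 ± 10.1 CPM (n = 2), 1.26-fold apart (two-sided exact permutation, p = 0.333, which is the lowest value this design can give). The difference of the means, 12.0 CPM, was 16.7 without AAV-CTRL 1, 7.38 without AAV-CTRL 2, 4.87 without AAV-mVEGF-C 1 and 19.2 without AAV-mVEGF-C 2. On the TPM scale, which also divides by gene length, the groups overlapped (exact permutation p = 0.667). In bulk RNA, more T cells and more receptor RNA per T cell cannot be told apart.

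The delta chain was the most read chain in both control pools and in the second AAV-mVEGF-C pool, and the beta chain in the first. Delta genes stood at 24.4 and 14.1 CPM in the control pools and at 18.1 and 16.2 CPM in the AAV-mVEGF-C pools, the latter values lying between the former (exact permutation p = 1). Beta genes stood at 13.5 and 11.1 CPM, and 19.8 and 15.4 CPM, in the same order. For alpha genes the levels were 9.60 and 9.79 CPM in the controls and 17.4 and 11.5 CPM after AAV-mVEGF-C. For gamma genes they were 3.75 and 6.84 CPM in the controls and 10.4 and 8.30 CPM after AAV-mVEGF-C. Alpha, beta and gamma levels were thus each higher in both AAV-mVEGF-C libraries than in both controls, by 1.49, 1.43 and 1.76 times the control mean (exact permutation p = 0.333 for each chain, the smallest possible). Of these 3 chains, only gamma kept this separation in TPM. Without AAV-CTRL 1 the gamma difference was 2.50 CPM instead of 4.05. Without AAV-mVEGF-C 1 the alpha difference was 1.79 CPM instead of 4.76, and the beta difference 3.13 instead of 5.32. Without AAV-mVEGF-C 2 the alpha difference was 7.74 CPM.

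**Figure D1:**
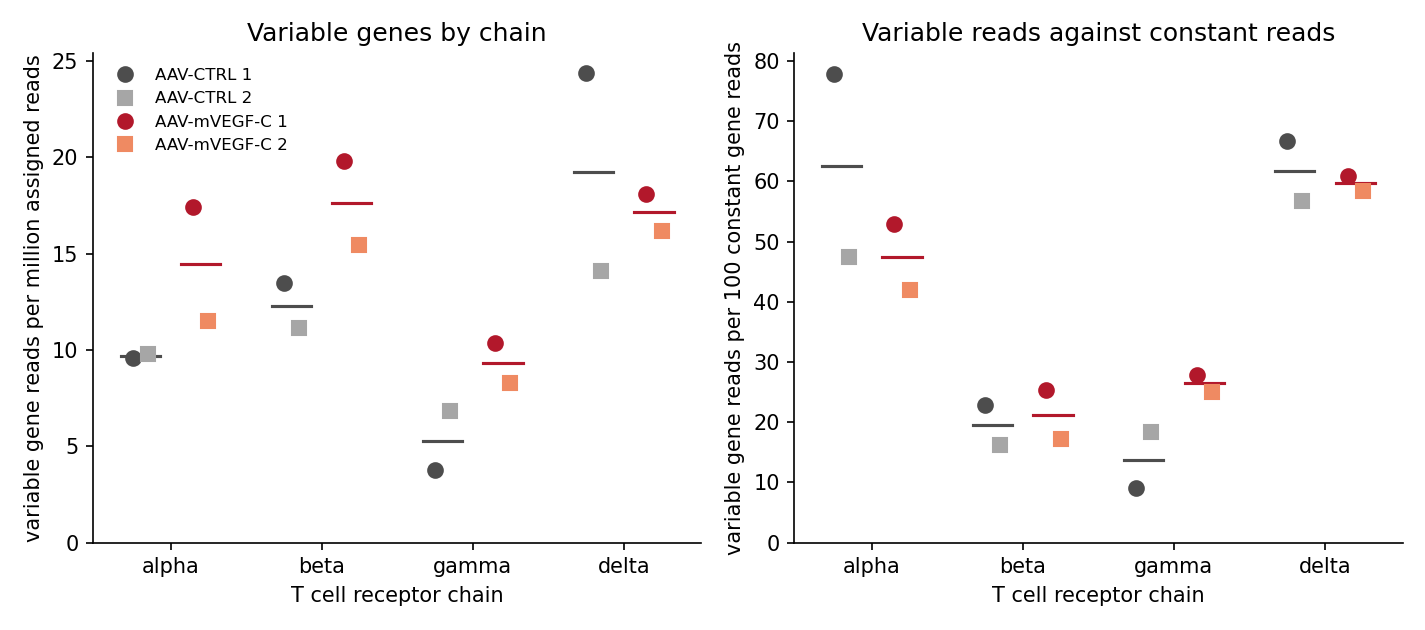
Left, CPM of the kept variable genes by chain. Right, the same reads per 100 reads of the constant genes of that chain. Each point is 1 library (circles, replicate 1; squares, replicate 2; grey, AAV-CTRL; red and orange, AAV-mVEGF-C) and each line a group mean of 2. Gamma points of the AAV-mVEGF-C libraries, 27.9 and 25 per 100 constant reads, lie above both controls, 9.0 and 18.3, and the delta points of the groups overlap.

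Constant genes, to which the variable genes of a chain are spliced, gave a second reading of the chains. Trac, the alpha constant gene, was at 12.3 and 20.7 CPM in the control pools and at 33.0 and 27.4 CPM in the AAV-mVEGF-C pools. Trbc1 and Trbc2 summed, the beta constant genes, were at 58.7 and 69.1 CPM in the controls and 78.4 and 90.0 CPM after AAV-mVEGF-C. Trbc2 alone overlapped, at 30.6 and 32.9 CPM in the controls and 30.7 and 33.8 CPM after AAV-mVEGF-C. The gamma constant genes, Trgc1 to Trgc4 summed, were at 41.7 and 37.4 CPM in the controls and at 37.2 and 33.2 CPM after AAV-mVEGF-C. The sum was thus lower where gamma variable reads were higher, with AAV-CTRL 2 and AAV-mVEGF-C 1 almost level. None of the constant genes taken singly was lower in both AAV-mVEGF-C libraries. Which gamma constant gene each gamma variable gene was spliced to was not read, so gamma values per constant read rest on a mixed sum. Trdc, the delta constant gene, was at 36.6 and 24.9 CPM against 29.7 and 27.7 CPM.

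Variable reads per 100 constant reads differed by chain as well as by library. Delta gave 56.7 to 66.7 in the 4 libraries, beta 16.1 to 25.3 and alpha 41.9 to 77.9. Gamma gave 9.0 and 18.3 in the control pools and 27.9 and 25 in the AAV-mVEGF-C pools, means of 13.7 ± 6.58 and 26.5 ± 2.05 (SD, n = 2; exact permutation p = 0.333, the smallest possible). Without AAV-CTRL 1 the control value is 18.3, still below both AAV-mVEGF-C libraries. The 84 joining and diversity segments listed, which are short, had only 15 reads in all.

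Trdv4 (ENSMUSG00000076867.2, chr14:54074905-54075515, plus strand) held 2741 reads, more than any other variable gene. It had 1118 and 455 reads in the control pools, and 656 and 512 in the AAV-mVEGF-C pools, or 24.1, 13.6, 17.2 and 15.7 CPM. The highest and the lowest library were both controls. The log2 fold change was -0.22 (SE 0.32; edgeR quasi-likelihood test, Benjamini-Hochberg adjusted p = 0.999), and the difference of the means, -2.38 CPM, became 2.84 CPM without AAV-CTRL 1.

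Trdv4 made up 95.2% to 98.8% of the delta variable reads in every library. Its share of all variable reads was 47.1% and 32.6% in the control pools, and 26.2% and 30.6% in the AAV-mVEGF-C pools. Both AAV-mVEGF-C shares were below both control shares, while the level of Trdv4 itself overlapped. The whole delta share was 47.6% (95% Wilson interval 45.6 to 49.7, counting error only), 33.7% (31.3 to 36.2), 27.5% (25.8 to 29.3) and 31.5% (29.3 to 33.8) in the same order, so AAV-CTRL 2 and AAV-mVEGF-C 2 overlapped in their counting intervals. Per 100 Trdc reads there were 65.8 and 54.8 Trdv4 reads in the controls and 58.0 and 56.8 after AAV-mVEGF-C. A gene annotated on the opposite strand across all 611 bases of Trdv4 (Gm30275) had no reads.

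The other delta genes were near the floor of detection. Trdv5 had 14, 7, 11 and 1 reads over the 4 libraries. It overlaps Trdc on the opposite strand over 207 of its 633 bases. Trdv2-2 had 0, 7, 12 and 12 reads in the same order. Trdv1 had 0, 2, 10 and 2. Trdv2-2 and Trdv1 were higher in both AAV-mVEGF-C libraries than in both controls, with AAV-CTRL 1 at 0 for each. For Trdv1, AAV-CTRL 2 and AAV-mVEGF-C 2 both had 2 reads and differed only through their library totals.

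**Figure D2:**
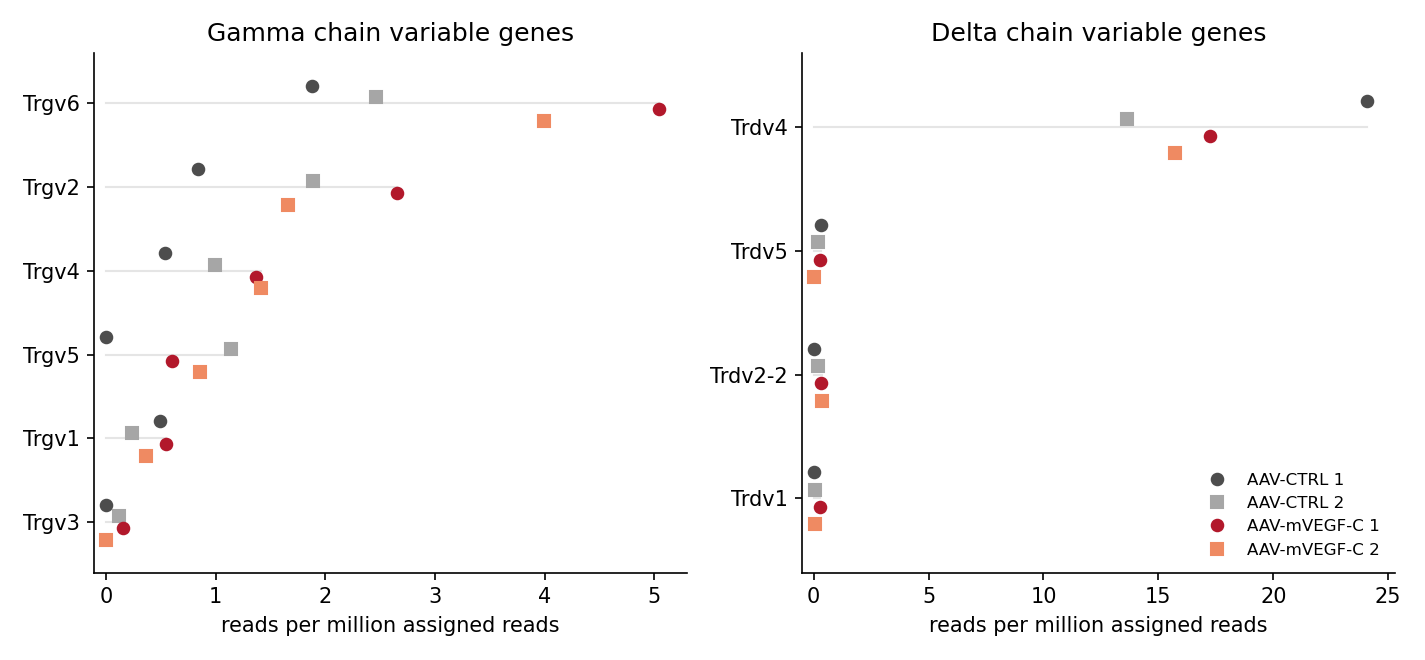
CPM of the 6 gamma (left) and 4 delta (right) variable genes in each library. Trgv6 separates the groups, 1.87 and 2.46 CPM against 5.05 and 4.0 CPM, and Trdv4, at 13.6 to 24.1 CPM, does not.

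Among gamma genes, Trgv6 (ENSMUSG00000076746.3, chr13:19190356-19190929, plus strand) led in every library. It had 87 and 82 reads in the control pools, and 192 and 130 in the AAV-mVEGF-C pools, or 1.87, 2.46, 5.05 and 4.0 CPM. The 2 groups did not overlap, with means of 4.52 ± 0.741 CPM (SD, n = 2) after AAV-mVEGF-C and 2.17 ± 0.414 CPM (n = 2) in the controls, 2.09-fold apart. Over all genes the edgeR quasi-likelihood test gave a log2 fold change of 1.06 (SE 0.39), unadjusted p = 0.0355 and Benjamini-Hochberg adjusted p = 0.999, so the difference did not pass. The unadjusted p was 0.0547 with a replicate block and 0.0621 without the read filter. In CPM the difference of the means was 1.83 to 2.88 whichever library was left out, against 2.35 with all 4, and in TPM Trgv6 was 1.78-fold higher.

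Within the gamma chain the place of Trgv6 did not separate the groups. It made up 50% and 36.0% of gamma variable reads in the control pools, and 48.6% and 48.2% in the AAV-mVEGF-C pools. The overlapping gene on the other strand, Gm31887, which spans Trgv6, Trgv4 and Trgv5, had 4 reads in all.

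Trgv4 had 25, 33, 52 and 46 reads over the 4 libraries, or 0.539, 0.990, 1.37 and 1.41 CPM. It was the other gamma gene whose groups did not overlap (log2 fold change 0.87, SE 0.72; edgeR quasi-likelihood, adjusted p = 0.999). Trgv2 had 39, 63, 101 and 54 reads in that order, and AAV-CTRL 2 lay above AAV-mVEGF-C 2 in CPM. Trgv5, which pairs with Trdv4 in the epidermal T cells of the skin, had 0, 38, 23 and 28 reads. Its highest library was a control and its lowest the other control. Trgv1, common in gamma delta T cells of the spleen, had 23, 8, 21 and 12 reads and overlapped, as did Trgv3 with 0, 4, 6 and 0. Trgv7, typical of the gut epithelium, stayed below the minimum with 0, 3, 4 and 1 reads.

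Trdv4 and Trgv6 were not read in fixed proportion. There were 12.9 and 5.55 Trdv4 reads per Trgv6 read in the control pools, and 3.42 and 3.94 in the AAV-mVEGF-C pools. Corrected for length, as TPM, the ratios were 9.27 and 4.69 in the controls and 2.66 and 3.35 after AAV-mVEGF-C. The control ratios were above both others on either scale, and AAV-CTRL 1 stood far above AAV-CTRL 2. These per-library ratios were not put to a test.

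Marker genes of gamma delta and interleukin 17-producing T cells are given beside Trgv6, and their part in its values was not tested. Il17a, the cytokine itself, had 267 and 46 reads in the control pools and 862 and 233 in the AAV-mVEGF-C pools, or 5.75, 1.38, 22.7 and 7.16 CPM. Of the 10 genes on the list of gamma delta and interleukin 17 T cells, which includes the constant genes Trdc and Trgc1, 4 were higher in both AAV-mVEGF-C libraries than in both controls and none was lower in both, where 18.8% and 13.2% of all genes with 10 or more reads were. The log2 fold change was above 0 for 6 of the 10 and below 0 for Trdc, Trgc1, Maf and Blk. The list had a summed level of 277 and 322 CPM in the controls and 334 and 313 CPM after AAV-mVEGF-C. None of the 10 passed the edgeR quasi-likelihood test after adjustment, and 3 had a positive log2 fold change with an unadjusted p under 0.05, as had 1.46% of all genes tested.

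Beta genes were few and well covered, with a median of 106.5 reads over the 20. The 6 highest by mean TPM were Trbv13-3, Trbv3, Trbv5, Trbv13-2, Trbv16 and Trbv13-1. Trbv3 had 62, 58, 98 and 65 reads over the 4 libraries, or 1.34, 1.74, 2.58 and 2.00 CPM, both AAV-mVEGF-C libraries being the higher. Trbv13-3 had 124, 21, 58 and 49 reads, or 2.67, 0.630, 1.52 and 1.51 CPM, so the controls were the highest and the lowest. AAV-CTRL 1 gave 19.8% of its beta reads to Trbv13-3. Its sister genes did not follow: Trbv13-2 had 36, 28, 63 and 30 reads, and Trbv13-1 had 10, 36, 42 and 37.

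Trbv16 had 37, 21, 111 and 35 reads, or 0.797, 0.630, 2.92 and 1.08 CPM. Its mean was higher after AAV-mVEGF-C mostly through AAV-mVEGF-C 1, where it was the leading beta gene (log2 fold change 1.45, SE 0.73; edgeR quasi-likelihood, adjusted p = 0.999). Trbv5 had 22.9, 32.6, 68.7 and 54 estimated reads, or 0.494, 0.978, 1.81 and 1.66 CPM, with the groups well apart (log2 fold change 1.24, SE 0.68; edgeR quasi-likelihood, adjusted p = 0.999). A listed transcript, 5830405F06Rik, runs through all of Trbv5 and Trbv4 on the same strand and took 23.1 reads in all. Trbv12-2 had 0, 9, 19 and 11 reads.

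Among beta genes, 1 had its groups in the opposite order. Trbv20 had 55, 23, 17 and 11 reads, or 1.19, 0.690, 0.447 and 0.338 CPM, with both AAV-mVEGF-C libraries below both controls (log2 fold change -1.27, SE 0.95; edgeR quasi-likelihood, adjusted p = 0.999). The pseudogene Trbv24 had 15, 0, 2 and 0 reads, nearly all in AAV-CTRL 1.

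**Figure D3:**
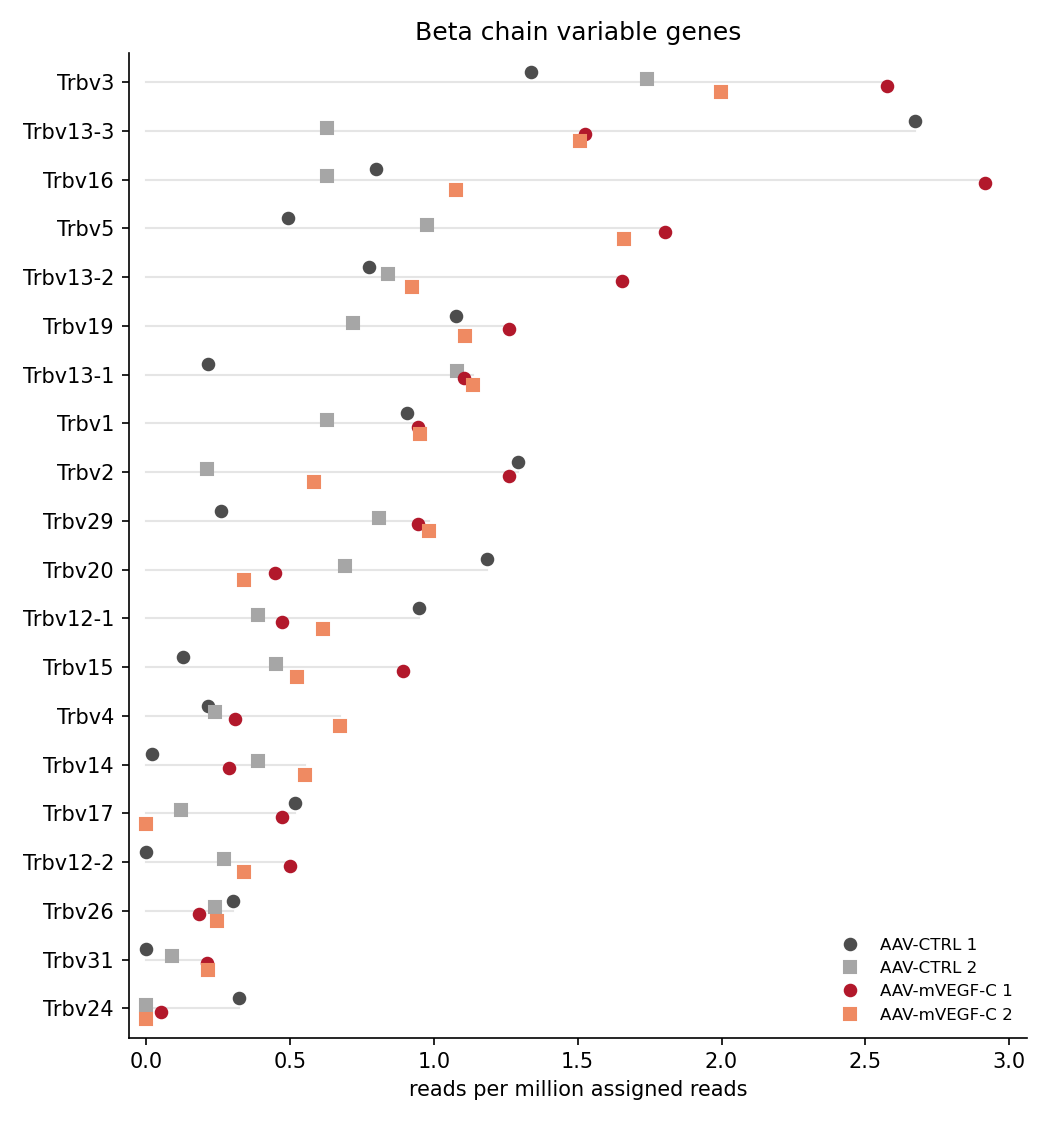
CPM of the 20 beta variable genes in each library, ordered by the mean of the 4. AAV-CTRL 1 is the highest library for Trbv13-3 and Trbv20 and the lowest for Trbv13-1, and 12 of the 20 genes have the AAV-mVEGF-C pair above the control pair, as have 18.8% of all genes with 10 or more reads.

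The order of the beta genes was shared by 3 libraries and less so by AAV-CTRL 1. Across the 20 genes, on log2(CPM + 0.1), AAV-CTRL 2, AAV-mVEGF-C 1 and AAV-mVEGF-C 2 correlated with each other at Pearson's r of 0.795 to 0.874, and AAV-CTRL 1 with them at 0.365 to 0.539. The points are genes of the same libraries and no test was made of them. The effective number of beta genes, which is the number of equally used genes that would give the same evenness, was 13.1 and 15.4 in the control pools and 14.9 and 15.3 in the AAV-mVEGF-C pools. The groups overlapped (exact permutation p = 1).

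Alpha genes were many and thinly covered, with a median of 22 reads over the 69 genes and at most 86. Of the 69 genes, 58 shared at least 1 stretch of 100 transcript bases with another variable gene and 22 shared all of theirs. Estimated counts with decimals, the mark of reads divided between genes, were found in 38 of the 69, and all 38 were among the 58. When genes sharing over 50% of the stretches of the shorter one were joined, 59 alpha genes or groups of copies were left, of which 21 held several genes. In 20 of these 21 a member had decimals, and in all 20 the sums were whole in each library, within 0.02 reads, so the reads had been divided inside the group. Values for single copies are therefore uncertain, and sums over copies are given for the main pairs.

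Trav7d-6 and Trav7n-6 summed had the most alpha reads, 81, 8, 14 and 11 over the 4 libraries. Of these 114 reads, 81 lay in AAV-CTRL 1, and the third copy Trav7-6 had 0, 2, 8 and 4. Trav14-2 had 52, 15, 9 and 10 reads and Trav10 had 32, 10, 10 and 8. Trav19 had 18, 8, 5 and 5. These last 3 genes were the alpha genes with both AAV-mVEGF-C libraries below both controls in CPM (log2 fold change -1.55, SE 1.12 for Trav14-2 and -0.98, SE 1.26 for Trav10; edgeR quasi-likelihood, adjusted p = 0.999 for each, Trav19 not tested). Trav10 entered the test only through the control libraries, where it was higher, so its values are no support for a difference. In TPM, Trav14-2 was at 4.64, 1.69, 0.725 and 2.12, so its groups overlapped on that scale.

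Trav6-7-dv9, which can join either alpha or delta segments, had 14, 22, 14 and 9 reads and overlapped. Trav6-6 and Trav6d-6 summed had 12, 9, 16 and 23 reads, or 0.259, 0.270, 0.420 and 0.707 CPM, higher in both AAV-mVEGF-C libraries. Among alpha genes with at least 30 reads whose groups did not overlap, the highest ratios of the group means were those of Trav14d-3-dv8 with 0, 2, 19 and 16.3 reads, Trav13-1 with 0, 3, 26 and 8, Trav7-4 with 0, 6, 11 and 27.9, and Trav7-3 with 0, 5, 20.4 and 5.89. Trav7-3 summed with its copy Trav7d-3 had 0, 5, 23 and 7 reads. Trav7-4 shares part of its sequence with Trav7d-4, and the pair summed to 0, 16, 16 and 30 reads, so that in CPM AAV-CTRL 2 lay above AAV-mVEGF-C 1 and the groups overlapped. AAV-CTRL 1 was at 0 for each of these genes, and each was present in AAV-CTRL 2. The whole Trav13 family, 13 genes, had 0, 34, 86 and 37 reads.

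Trav14n-3 was named here after its values were seen. It had 0, 0, 12 and 17.7 reads, and no fold change is drawn from values by which it was picked. Its decimals complement those of Trav14d-3-dv8, with which it shares part of its sequence, and the sum of the pair was 0, 2, 31 and 34 reads. It entered the edgeR quasi-likelihood test only through the group where it had reads, so its unadjusted p under 0.05 is no support for a difference.

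Innate-like T cells have receptors that use a single alpha variable gene. Of such genes, Trav11 with Trav11d had 47 reads in all and Trav1 had 24, beside a median of 30 over the 59 alpha genes or groups of copies. Trav11 and Trav11d summed had 7, 9, 24 and 7 reads, or 0.151, 0.270, 0.631 and 0.215 CPM, with AAV-mVEGF-C 2 between the controls. Trav11 on its own was listed at 0, 0, 10.4 and 5.47 reads and Trav11d at 7, 9, 13.6 and 1.53, a division between copies that could not be told apart over the bases shown. Trav1, the alpha gene of mucosal-associated invariant T cells, had 0, 8, 12 and 4 reads.

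**Figure D4:**
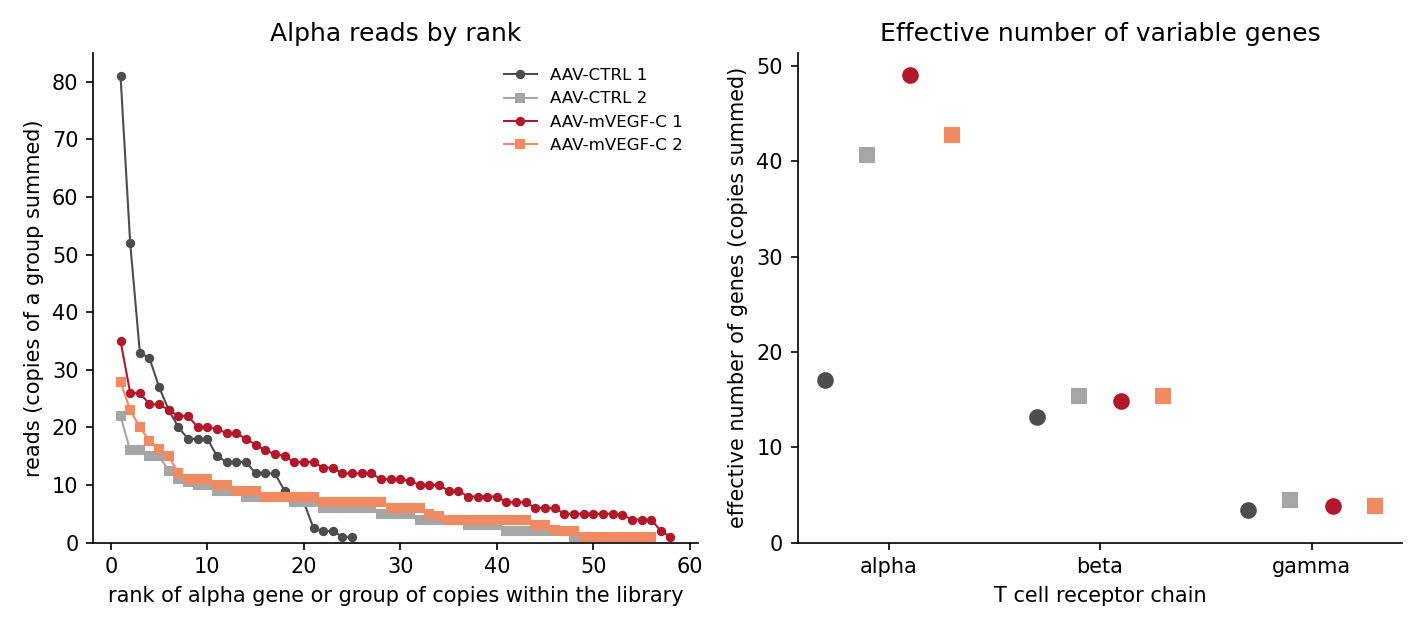
Left, reads of each alpha gene or group of copies against its rank within the library, for those above 0. Right, the effective number of variable genes, copies summed, for alpha, beta and gamma chains. AAV-CTRL 1 falls from 81 reads at the first rank to 0 after rank 25, while the others reach 51 to 58.

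The number of alpha genes detected was lowest in AAV-CTRL 1. It had reads for 29 of the 69 genes, and the other libraries, in order, for 56, 66 and 60. The counts were 25, 51, 58 and 56 over the 59 genes or groups of copies. Those it did have were deep, with a median of 14 reads per detected group, compared with 6, 11 and 6.5 in the others. At an equal depth of 326 alpha reads per library, the expected number of genes was 28.5 and 56 in the controls and 64.3 and 58.7 after AAV-mVEGF-C. This makes only the number of reads equal, and 61% of all genes with 10 to 100 reads were at 0 in AAV-CTRL 1.

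The effective number of alpha genes was 21.1 and 45.9 in the control pools and 57.7 and 46.0 in the AAV-mVEGF-C pools. The means were 33.5 ± 17.5 and 51.8 ± 8.30 (SD, n = 2; exact permutation p = 0.333, the smallest possible). AAV-CTRL 2 and AAV-mVEGF-C 2 were practically level. The groups overlapped with TPM in place of reads, and with the inverse Simpson index, another measure of evenness (exact permutation p = 0.667 for each). The difference of the means, 18.3 genes, was 5.92 without AAV-CTRL 1, and 0.753 when whole Trav families were counted in place of genes. With copies summed the values were 17.1, 40.6, 49.1 and 42.7.

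Across all variable genes, 36 of 99 (36.4%) were higher in both AAV-mVEGF-C libraries than in both controls and 4 (4.04%) were lower. Among all 26874 genes with 10 or more reads, 18.8% were higher and 13.2% lower in this sense. Since most variable genes had few reads, the nearer reading is over genes with 10 to 100 reads, where 26.4% of all 10382 were higher and 4.45% lower, and 26 of the 84 variable genes (31%) were higher and 3 lower. With copies joined, 28 of the 73 genes or groups of copies in that range (38.4%) were higher and 3 lower, so the share moved with how copies were counted. No copies were joined among the genes behind the 26.4%. Without AAV-CTRL 1, 35 of the 84 (41.7%) were higher in both AAV-mVEGF-C libraries than in AAV-CTRL 2 and 15 (17.9%) lower, where all genes of that range gave 31% and 25.1%. The 15 variable genes with over 100 reads included 10 higher and 1 lower, beta genes for the most part, where 14% of all 16492 genes with over 100 reads were higher and 18.8% lower. Beta genes were higher in 12 of 20 cases, alpha in 20 of 69, gamma in 2 of 6 and delta in 2 of 4.

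Of the 99 genes, 39 had enough reads for the edgeR quasi-likelihood test across all genes and none was called at an adjusted p under 0.05. The percent called among all 19806 genes tested was also 0. An unadjusted p under 0.05, which 1.46% of all genes reached in the upward direction, was reached there by Trgv6 and by Trav14n-3, whose p is no support, and by no variable gene downward. The median log2 fold change of the 39 was 0.57, with 27 above 0, against 0.0034 over all genes tested. A gene enters this test by its reads in at least 2 libraries. Of the 39, 6 reached the minimum of 0.28 CPM in AAV-mVEGF-C libraries alone, among them Trav14n-3, Trav14d-3-dv8 and Trav7-4, and 1, Trav10, in control libraries alone. The 39 are therefore not a sample of all variable genes, and their median and count are a description only.

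The level of other T cell genes is given beside these values. Of 18 general T cell genes, 15 had a log2 fold change above 0, with a median of 0.27, and none was called after adjustment (edgeR quasi-likelihood). Of the 18, 11 were higher in both AAV-mVEGF-C libraries than in both controls and 1 was lower, beside the 18.8% and 13.2% of all genes, and 3 reached an unadjusted p under 0.05 upward and 1 downward. The largest log2 fold change of the list was 0.64 (SE 0.25) for Cd5, and the lowest was -0.56 (SE 0.17) for the adhesion receptor Cd2. Of the 7 constant genes tested, 3 had a log2 fold change above 0, and the median was -0.06. Trac had 0.88 (SE 0.26), Trbc1 0.70 (SE 0.20) and Trbc2 0.02 (SE 0.17). Trdc had -0.11, Trgc1 -0.20, Trgc2 -0.36 and Trgc4 -0.06. The 18 genes summed to 764 and 838 CPM in the control pools and 1005 and 970 CPM in the AAV-mVEGF-C pools. The coreceptors of helper and cytotoxic T cells, Cd4 and Cd8a, had log2 fold changes of 0.28 (SE 0.16) and -0.10 (SE 0.21). Ptprc, which encodes CD45 itself, had a log2 fold change of 0.02. Genes of other cells differed by type. The 4 fibroblast genes summed to 549.7 and 928 CPM against 310.2 and 448 CPM, and the 5 natural killer cell genes to 54.6 and 54.1 CPM against 34.0 and 42.8 CPM, so both sums were the lower in the AAV-mVEGF-C pools. B cell genes, 6 in number, summed to 267 and 675.5 CPM against 288 and 292 CPM and overlapped, while all 6 had a log2 fold change below 0 (median -0.76) and 2 were lower in both AAV-mVEGF-C libraries. The 3 endothelial genes, each lower in both, summed to 61.3 and 75.02 CPM against 55.0 and 52.8 CPM. Of 5 myeloid genes, 4 had a log2 fold change above 0, with a median of 0.03, and none separated the groups. Rag1, which cuts the DNA when variable genes are joined, had 655, 1482, 116 and 270 reads. Its partner Rag2 had 164, 65, 20 and 41 reads and Dntt, which adds bases at the joins, had 490, 517, 294 and 336. These 3, of 5 genes listed for immature thymocytes and recombination, were lower in both AAV-mVEGF-C libraries. Ptcra, the partner chain of immature thymocytes, was at 0, 0, 0 and 2 reads. Cd1d2, also on that list, was at 1.09, 5.20, 4.16 and 16.8 reads, and neither had enough reads for the edgeR test. The part of these differences in the variable gene values was not tested.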

How the data were processed

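RNA of sorted dural CD45+ cells was sequenced in 4 libraries, 2 per group. Per the labels, the authors used FastQC, Trimmomatic, DRAGEN and Picard on mm10 and a stranded total RNA kit; the strand setting of the counting is not given in the sources used here. The authors deposited expected counts, estimated reads per gene without normalization, and TPM. Groups and replicate numbers came from the sample titles.

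Expected counts were rounded and tested with edgeR 4.0.16 (R 4.3.3; TMM, filterByExpr, quasi-likelihood F test, Benjamini-Hochberg). CPM is the count of a gene over all assigned reads of its library. Single values were compared by exact two-sided permutation tests, with no p under 0.333. The fit was checked on simulated counts. Copies were joined by shared 100-base stretches of GENCODE M21 transcripts; all 178 gene identifiers matched. Sequences are credited to GENCODE M21 (GRCm38). Wilson intervals are at 95%.

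Members and lists were chosen with earlier results of these data known. Named genes were the 6 alpha and 6 beta genes of highest mean TPM, all gamma and delta members, Trav11, Trav11d and Trav1, and, among genes with at least 30 reads whose groups did not overlap, the 6 highest and 6 lowest ratios of mean CPM (4 existed of the latter), plus constant genes and Cd3e, Cd4 and Cd8a. Alternatives were DESeq2 1.42.0, RLE size factors, no filter, limma 3.58.1 on log2(TPM + 1), a replicate block and leaving out each library.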

Additional observations from a re-analysis of the deposited data

How the results depend on the processing

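No variable gene passed an adjusted p under 0.05 with edgeR, RLE size factors, DESeq2, no filter, limma on TPM or the replicate block. Leaving out 1 library gave 0 to 1, the 1 being Trgv5 without AAV-CTRL 2 (adjusted p = 0.0312, edgeR quasi-likelihood), where 2058 of all genes were called. Unadjusted p under 0.05 was reached by 2 members with edgeR, by 5 of 99 with DESeq2, which left 63 adjusted p-values undefined, and by 19 of 96 with limma on TPM, 17 up and 2 down. No member reached it with either replicate block, and Trgv6 did not reach it without a filter. Over all genes it was reached with edgeR, DESeq2 and limma by 523 of 19806, 854 of 40674 and 1075 of 22471.

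The median log2 fold change, 0.57 against 0.0034 over all genes, was 0.75 with DESeq2 (all genes 0.25), 0.68 without a filter (0.22), 0.18 with limma on TPM (-0.06), and 0.34 to 1.31 when 1 library was left out. With a replicate block, pairing libraries by their numbers in the labels, it was 0.73. Same-numbered libraries deviated at a correlation of -0.134 and the numbers of the deposited columns differ from those of the labels, so the pairing is not settled; the crossed pairing, added after seeing the data, gave 0.73 and also 0 calls.

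Leaving out 1 library moved the difference of delta reads from -2.10 CPM to between -7.24 and 3.03, of Trdv4 to between -7.60 and 2.84, and of the effective number of beta genes from 0.863 to between -0.260 and 1.99. All 3 reversals came without AAV-CTRL 1. The difference in the effective number of alpha genes, 18.3, was 30.4 without the read minimum and 5.92 to 30.7 when 1 library was left out. The count of genes with groups not overlapping, which grows by construction with fewer libraries, was 43 to 61 higher (43.4% to 61.6% of the 99) and 8 to 24 lower (8.08% to 24.2%), where the same omissions gave 25.4% to 52% and 20.5% to 36.2% of all 26874 genes. Lone libraries were assumed to vary like the other group. Depth limits single genes, since 84 of 99 members had 100 reads or fewer in all.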
